A study of Mus musculus with 3 samples.

Results

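Binding of TFAP2A was examined at 10 mouse genes that encode feedback regulators and output factors of the ERK branch of MAP kinase signalling. These were the phosphatase genes Dusp4, Dusp5 and Dusp6, the Sprouty genes Spry1, Spry2 and Spry4, the SPRED genes Spred1 and Spred2, and the ETS factor genes Etv4 and Etv5. The genes were listed by name, out of 22367 protein-coding genes on the assembled chromosomes, with earlier results of these data known, although the listing rule itself used no measured value. A peak belonged to a gene when its summit, the base of highest signal, lay in the gene body or within 100 kb of it. By this rule the 10 genes held 45 of the 18528 peaks of replicate 1 and 53 of the 21459 peaks of replicate 2.

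In ERK signalling, receptor tyrosine kinases act through RAS, RAF and MEK to activate the kinases ERK1 and ERK2. Active ERK switches on genes whose products then hold the pathway back. DUSP phosphatases remove the activating phosphates from MAP kinases, and Sprouty and SPRED proteins dampen the cascade at the level of RAS and RAF. ETV4 and ETV5 are transcription factors of the PEA3 group whose levels follow ERK activity. In melanocytes, the pigment cells of skin and hair, signals such as KIT ligand reach survival and pigment programs through this pathway.

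Chromatin from melan-a cells, an immortalised melanocyte line grown out of normal embryonic mouse skin and carrying the Cdkn2a tm1RDp/tm1RDp genotype, was fixed with formaldehyde and precipitated with the 3B5 antibody to TFAP2A (ChIP-seq). The series held 3 samples, of which 2 were ChIP replicates from independent experiments and 1 was input chromatin, which was not analysed here. All cells were grown with 200 nM 12-O-tetradecanoylphorbol 13-acetate (TPA), a phorbol ester that activates protein kinase C upstream of RAF and ERK, and with 200 pM cholera toxin, and no other treatment was given. The ERK state of the cells was therefore that of TPA-supplemented culture in every sample, and gene expression was not measured in these samples.

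To show what lay under the promoter summits, the mm9 sequence of the plus strand was read from 50 bases before to 50 bases after each replicate 1 summit, with the replicate 2 summit for a region found in that replicate only. Promoters reached from 5 kb upstream to 1 kb downstream of an annotated transcription start site (TSS). Capitals mark the TFAP2 site searched for, GCCNNNGG on either strand, which reads CCNNNGGC on the plus strand when it lies on the minus strand. The symmetric form GCCNNNGGC holds a match on both strands and was counted as 1 stretch, as were matches that overlapped. At the Dusp4 region inside the UTR, 29 bases around the site are given.
Dusp4 promoter, chr8:35868553-35868653: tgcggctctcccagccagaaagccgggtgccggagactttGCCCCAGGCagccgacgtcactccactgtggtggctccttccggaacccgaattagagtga
Dusp4 promoter, chr8:35870634-35870662: gagggagaagaGCCTGGGGCcaagtttgc
Dusp6 promoter, chr10:98724480-98724580: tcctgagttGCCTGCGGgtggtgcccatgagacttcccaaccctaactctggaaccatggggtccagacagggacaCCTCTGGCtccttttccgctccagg
Spred1 promoter, chr2:116945574-116945674: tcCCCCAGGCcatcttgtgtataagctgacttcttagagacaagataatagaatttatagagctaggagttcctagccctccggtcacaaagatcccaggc
Spred1 promoter, replicate 2 only, chr2:116946713-116946813: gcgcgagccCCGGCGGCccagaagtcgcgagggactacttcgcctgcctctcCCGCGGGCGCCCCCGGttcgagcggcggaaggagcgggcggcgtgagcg
Spred2 promoter, chr11:19820390-19820490: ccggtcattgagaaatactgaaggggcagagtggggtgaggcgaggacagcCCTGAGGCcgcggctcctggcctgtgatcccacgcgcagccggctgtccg
Spred2 promoter, chr11:19825120-19825220: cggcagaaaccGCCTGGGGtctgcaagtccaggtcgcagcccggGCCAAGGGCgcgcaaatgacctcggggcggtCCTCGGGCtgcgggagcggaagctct
Etv4 promoter, chr11:101646953-101647053: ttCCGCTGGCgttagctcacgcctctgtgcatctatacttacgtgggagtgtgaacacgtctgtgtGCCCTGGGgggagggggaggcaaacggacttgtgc
Etv4 promoter, chr11:101645085-101645185: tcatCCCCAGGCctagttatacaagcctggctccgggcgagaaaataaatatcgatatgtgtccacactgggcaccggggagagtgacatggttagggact

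The promoter summit of Spry4 is described by its values only. In the 8 shared promoter regions shown, the sites ranged from the symmetric form in both Dusp4 regions to 3 separate stretches at Spred2. The Spred1 region found in replicate 2 only also had 3 stretches, of which 2 abut and so appear as 1 run of capitals, in a window whose GC content was 78.2%.

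Of the distal regions, those outside all promoters of the gene, the windows of highest enrichment at Spred1 and Dusp6 are given because they carried the strongest signal of all 10 genes. The windows of Dusp5 and Spry1 are given because these genes had no other shared peak, and that of Etv5 as an example of a window without a TFAP2 site, as was also found at Spry4.
Spred1 distal, chr2:116905684-116905784: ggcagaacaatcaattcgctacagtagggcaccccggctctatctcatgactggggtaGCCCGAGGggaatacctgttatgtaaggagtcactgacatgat
Dusp6 distal, chr10:98732493-98732593: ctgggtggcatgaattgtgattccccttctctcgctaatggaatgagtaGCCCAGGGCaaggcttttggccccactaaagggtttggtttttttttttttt
Dusp5 distal, chr19:53627326-53627426: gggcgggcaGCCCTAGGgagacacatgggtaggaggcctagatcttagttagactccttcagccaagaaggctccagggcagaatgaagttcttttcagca
Spry1 distal, chr3:37552978-37553078: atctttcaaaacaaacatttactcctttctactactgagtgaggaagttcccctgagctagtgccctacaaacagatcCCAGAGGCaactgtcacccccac
Etv5 distal, chr16:22302790-22302890: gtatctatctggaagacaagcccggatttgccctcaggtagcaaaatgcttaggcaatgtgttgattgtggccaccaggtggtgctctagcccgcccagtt

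The site lay 2.5 bp from the summit at Dusp6 and 11.5 bp at Spred1. At Spry1 it lay 31.5 bp from the summit.

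How many peaks each gene carried was taken from both replicate lists. Over the 10 genes the mean was 49 ± 5.66 peaks (SD, n = 2). Peaks of the replicates that overlapped by at least 1 bp were called shared, and 40 regions were shared, 5 were found in replicate 1 only and 13 in replicate 2 only, which makes 58 regions in all. Every member had at least 1 shared peak in its window, and so did 71.7% of all protein-coding genes. Having such a peak was therefore common, and the count for the 10 genes says little about them. The median member had 3.5 shared peaks (1 to 9), and the median protein-coding gene had 2 (quartiles 0 and 4). Scaled to window length, which is larger for long genes, the medians were 1.57 per 100 kb for the members (0.469 to 4.17) and 0.816 for all genes. Etv4 and Dusp6 stood at the upper end with 9 and 7 shared peaks, counts above those of 96.3% and 91.5% of protein-coding genes. Dusp5 and Spry1 stood at the lower end with 1 each, above 28.3% of genes.

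**Figure D1:**
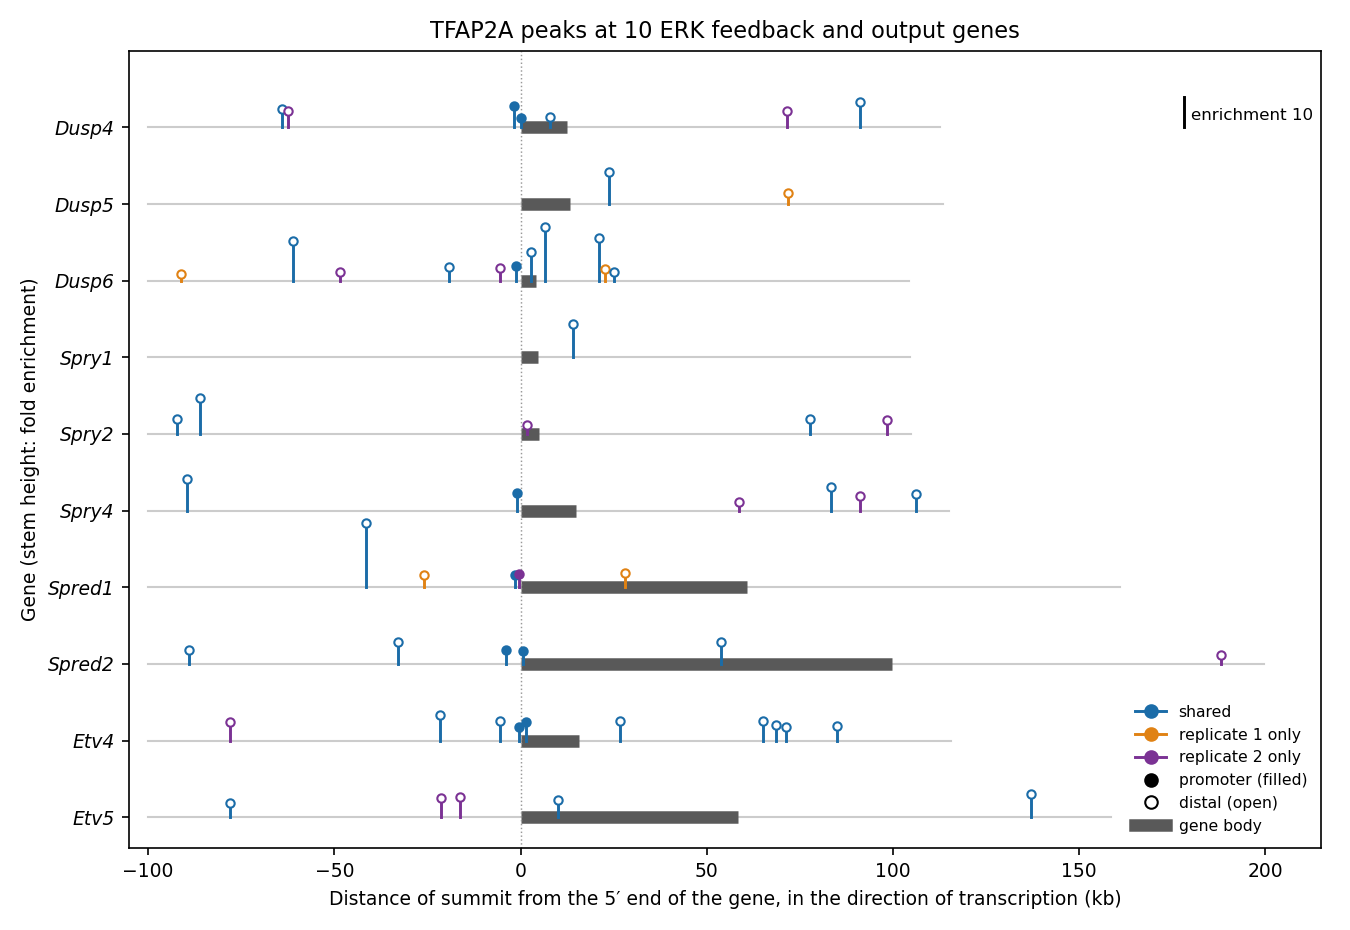
Positions of the peak regions along each of the 10 genes, in kb from the 5′ end of the gene in the direction of transcription, with stem height giving fold enrichment (mean of the replicates for shared regions, the scale bar equals 10). Colours give shared regions and regions of 1 replicate, filled heads mark promoter regions and open heads distal ones, and the tallest stems, at Spred1 and Dusp6, are distal. Where a gene has several annotated starts, distances in the text are from the nearest of them and so can be shorter than those plotted.

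**Figure D2:**
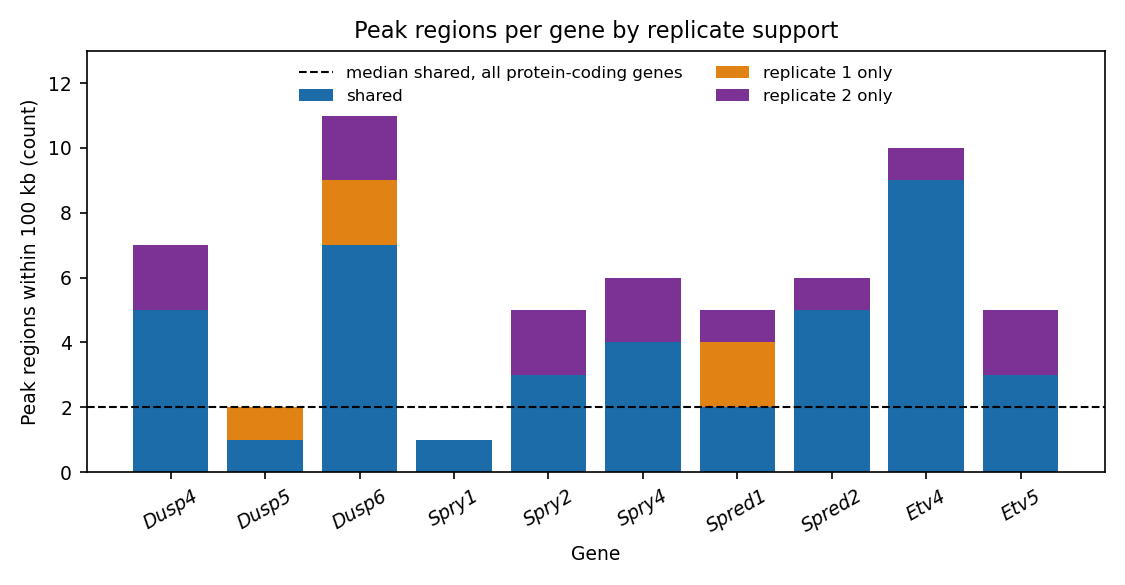
Number of peak regions per gene, stacked by whether a region was shared or found in 1 replicate only, with the dashed line at the median of 2 shared peaks over all protein-coding genes. Etv4 had 9 and Dusp6 had 7 shared regions, and Dusp5 and Spry1 had 1 each.

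The values below are fold enrichments over background from the authors' peak calling, whose software and settings could not be settled, first for replicate 1 and then for replicate 2, and positions are summit distances from the nearest TSS of the gene, negative when upstream. Regions other than the promoter regions and the strongest distal region of each gene were singled out after their values were seen, so that each gene's shared set is complete.

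Dusp4 (chr8:35870351-35882948) encodes an inducible nuclear phosphatase of MAP kinases. It had 5 shared peaks, 2 of them in its promoter. The peak at -1.75 kb (chr8:35867946-35869021, intergenic) had an enrichment of 6.95 and 7.22, a mean of 7.09 ± 0.187 (SD, n = 2), the highest of all promoter regions of the 10 genes. A weaker one at 253 bp (chr8:35870406-35870869), inside the annotated UTR, had 3.47 and 2.91. The distal regions of Dusp4 varied more between the replicates than its promoter regions did. At -64.0 kb the values were 4.15 and 7.69, and at 91.1 kb, in an intron of Tnks (chr8:35961297-35961566), they were 5.54 and 11.1, a mean of 8.33 ± 3.96. A region in the gene's own intron at 8.01 kb was weak in both, with 2.80 and 3.80.

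Dusp5 (chr19:53603599-53616921), which encodes a nuclear phosphatase specific for ERK, differed from the other phosphatase genes in having no promoter peak. Its 1 shared region lay downstream at 23.8 kb (chr19:53627082-53627643) and had values of 9.98 and 11.2, a mean of 10.6 ± 0.884, above 83.2% of all shared pairs. A second peak, in replicate 1 only with an enrichment of 3.72, lay 608 bp from the start of the neighbouring gene Smc3.

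Dusp6 (chr10:98725865-98730122) encodes a cytoplasmic phosphatase selective for ERK and is widely used as a readout of ERK activity. It is a short gene, and its strongest peaks flanked it. Its promoter region at -1.34 kb (chr10:98724316-98724679) had 4.63 and 5.24, a mean of 4.94 ± 0.435. Downstream of the gene, the region at 6.68 kb (chr10:98731807-98732843) had 18.3 and 16.9, a mean of 17.6 ± 0.995, above 96.0% of all shared pairs. A further downstream region at 21.1 kb had 15.5 and 12.5. An upstream one at -61.2 kb, whose nearest protein-coding TSS was that of Poc1b at 9132 bp, had 11.4 and 14.5. Both of these exceeded the promoter region in either replicate by more than its spread. The intron of Dusp6 held a broad region at 2.71 kb, 1361 bp and 1307 bp wide, with 7.54 and 10.9. The remaining shared regions were weak, at -19.2 kb with 4.43 and 4.65 and at 25 kb with 3.05 and 2.66. Summed over the 3 phosphatase genes there were 13 shared regions, of which 3 were in promoters.

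The Sprouty genes encode membrane-associated inhibitors of receptor tyrosine kinase signalling. They had 8 shared regions and only 1 of these, at Spry4, was in a promoter. Spry1 (chr3:37538869-37543520) had a single region, downstream at 14.0 kb (chr3:37552710-37553340), with nearly equal values of 10.8 and 11, a mean of 10.9 ± 0.150. No other Sprouty region showed so small a spread. Spry2 (chr14:106291166-106296036) had its strongest region at -86.2 kb (chr14:106381779-106382482), with 13.7 and 9.69, a mean of 11.7 ± 2.87. The nearest protein-coding TSS was that of Spry2 for all 3 of its shared regions, and no other protein-coding gene lay in its window. The other shared regions of Spry2, at 77.8 kb with 5.61 and 4.30 and at -92.2 kb with 5.16 and 4.8, were weaker in both replicates.

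Spry4 (chr18:38745922-38760922) shares its upstream side with the neighbouring gene Arhgap26. Its promoter region at -829 bp (chr18:38761562-38761922) had values of 6.10 and 5.15, a mean of 5.63 ± 0.676. That summit was 494 bp from a TSS of Arhgap26 and in an intron of it, so it could be assigned to either gene. The strongest distal region, at -89.6 kb in another part of Arhgap26 (chr18:38850237-38850882), had 12.2 and 8.22, a mean of 10.2 ± 2.81. Downstream regions at 83.2 kb and at 106 kb had 7.01 and 8.26, and 5.21 and 5.67. The nearest protein-coding TSS was that of Spry4 for 1 of its 4 shared regions.

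SPRED proteins bind neurofibromin and bring this RAS inhibitor to the membrane, and both SPRED genes had a shared promoter region. Spred1 (chr2:116947110-117008015) carried the highest value of the 10 genes. Its distal region at -41.4 kb (chr2:116905178-116906165) had 21.7 and 20.3, a mean of 21.0 ± 0.976, above 97.7% of all shared pairs, and the summits of the replicates were 1 bp apart. The only other shared region of Spred1 was its promoter region at -1.49 kb (chr2:116945409-116945936), with 3.56 and 4.45, a mean of 4.0 ± 0.630. A second promoter peak at -347 bp (chr2:116946589-116946951) was called in replicate 2 only, with an enrichment of 4.28, so promoter binding at Spred1 extended closer to the TSS in that list.

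Spred2 (chr11:19824378-19924029) had 5 shared regions, with mean enrichments from 4.26 to 7.24. Its promoter regions were at -3.94 kb (chr11:19819960-19820742), with 4.91 and 4.05, and in an intron at 725 bp (chr11:19824956-19825376), with 4.44 and 4.08. Its strongest region was distal, at -33.0 kb (chr11:19791222-19791585), with 6.50 and 7.98, a mean of 7.24 ± 1.05. An intronic region at 23.7 kb had 7.33 and 6.76 and one at -89.1 kb had 5.27 and 3.57. All 5 regions had Spred2 as the gene of the nearest protein-coding TSS.

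The ETS factor genes had 12 shared regions, of which 2 were in promoters, both at Etv4. Etv4 (chr11:101631056-101646685) had its promoter regions at -318 bp (chr11:101646792-101647203), with 4.39 and 4.12, and at 567 bp in an intron (chr11:101644387-101645350), with 6.64 and 5.17. Upstream, a region at -21.6 kb (chr11:101667853-101669133) had 8.67 and 8.21, a mean of 8.44 ± 0.332, and one at -5.56 kb had 6.52 and 6.26. Etv4 thus had the most shared regions of the 10 genes with no enrichment above 8.67. Its remaining 5 lay downstream, from 13.6 kb to 71.7 kb, with means of 4.29 to 6.40, and the nearest protein-coding TSS of all 5 was that of Dhx8, an RNA helicase gene.

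Etv5 (chr16:22381382-22439792) had no promoter peak in either replicate. Its 3 shared regions were at 99.1 kb (chr16:22302589-22303077), with 7.80 and 7.48, in its own intron at 6.92 kb, with 5.39 and 5.86, and at -77.9 kb in an intron of Dgkg, with 4.33 and 4.63. The replicates were close at all 3, with SDs from 0.208 to 0.335. The region at 99.1 kb was nearer to the TSS of Tra2b, a splicing factor gene.

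The comparison of promoter and distal binding asked where along these genes TFAP2A was found and how strongly. A shared promoter peak was present at 6 of the 10 genes, or 60% (95% exact binomial interval 26.2 to 87.8), namely Dusp4, Dusp6, Spry4, Spred1, Spred2 and Etv4. Over all protein-coding genes the share was 17.0%, and since the list was made with results of these data in view, the difference is a description. With the upper 50% of each list by enrichment, only Dusp4 kept a shared promoter peak, 1 of the 10 genes, beside 6.40% of all protein-coding genes, so the count of 6 rested on peaks of lower enrichment. With promoters reaching 1 kb either way from a TSS the count was 4, and the share of all genes was not computed for that setting. The promoter summit of Spry4 was nearer to a TSS of Arhgap26. The genes without a shared promoter peak by the main definition, Dusp5, Spry1, Spry2 and Etv5, had shared distal regions only. Per region, 9 of the 40 shared regions, or 22.5% (10.8 to 38.5), lay in promoters, beside 25.7% of all shared peaks on assembled chromosomes. This share depended on the definitions, and was 36% with windows of 50 kb, 12.5% with promoters reaching 1 kb either way from a TSS and 5.56% in the upper 50% of each list. The rest comprised 31 distal regions. By position, 18 shared regions lay upstream of the gene, 7 in the gene body and 15 downstream, which was 1.80, 2.42 and 1.5 per 100 kb. By annotation at the summit, 28 were intergenic, 11 were in introns of the gene or a neighbour, 1 was in a UTR and 0 were in coding exons. The nearest protein-coding TSS was that of the member for 29 of the 40, and for 8 of the 9 in promoters.

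Promoter regions were weaker than distal ones in both replicates. The median enrichment of the 9 promoter regions was 4.63 and 4.45 in the replicates, averaging 4.54 ± 0.129 (SD, n = 2). For the 31 distal regions it was 6.51 and 6.76, averaging 6.63 ± 0.176. The ratio of promoter to distal was 0.712 and 0.658, a mean of 0.685 ± 0.0377. That SD is between 2 libraries over the same regions and does not measure the variation between regions. With all peaks of a single list, shared or not, the ratio was 0.831 in replicate 1 and 0.745 in replicate 2. No test of a difference between groups was run, since regions of 1 library are not replicates. The same order was seen over all shared pairs, with medians of 5.15 for 4126 pairs in promoters and 6.64 for 11908 distal pairs, a ratio of 0.775, and so it was not particular to these genes. The classes overlapped widely. As means of the replicates, promoter regions ran from 3.19 to 7.09 and distal regions from 2.86 to 21.0, so the weakest region was distal, and only the upper part of the distal range lay beyond the promoters. Enrichment did not grow steadily with distance. The median was 4.71 for the 10 regions within 5 kb of a TSS of the gene, 7.04 for 11 regions between 5 and 25 kb, 7.24 for 3 between 25 and 50 kb and 5.68 for 16 beyond that.

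**Figure D3:**
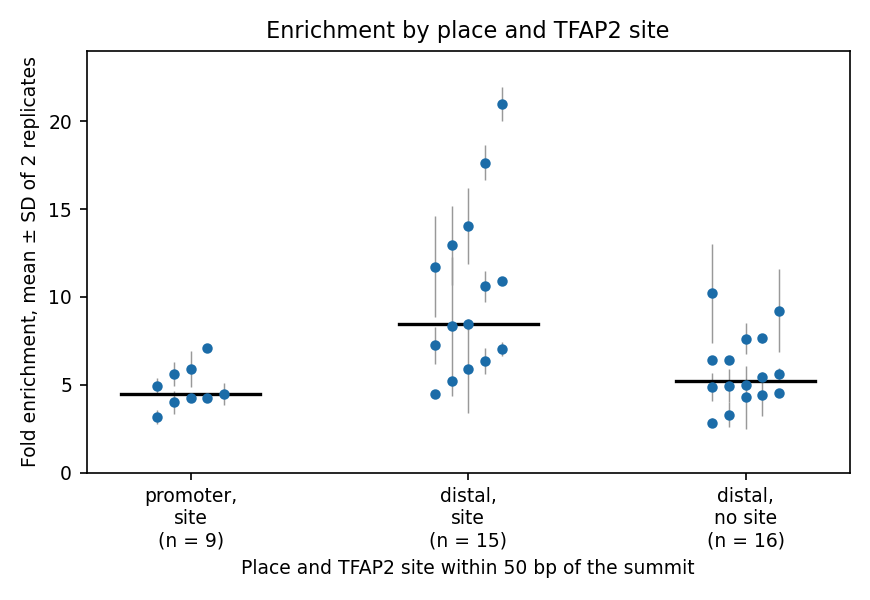
Fold enrichment of the 40 shared regions, as mean ± SD of the 2 replicates, by place and by whether a TFAP2 site lay within 50 bp of the replicate 1 summit. Horizontal bars are medians, at 4.48 for the 9 promoter regions, 8.44 for the 15 distal regions with a site and 5.21 for the 16 distal regions without, and the ranges of the 3 classes overlap.

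TFAP2 sites were looked for within 50 bp of the summits. At replicate 1 summits, 24 of the 40 shared regions held one, or 60% (43.3 to 75.1), close to the 57.1% of all shared peaks. In promoters it was 9 of 9, 100% (66.4 to 100), beside 64.5% of all shared promoter peaks. Among distal regions it was 15 of 31, 48.4% (30.2 to 66.9), beside 54.5%. The contrast between the classes depended on which summit was taken. At replicate 2 summits the counts were 27 of 40 (67.5%, 50.9 to 81.4), 8 of 9 (88.9%, 51.8 to 99.7) and 19 of 31 (61.3%, 42.2 to 78.2), beside 60.3%, 68.3% and 57.5% of all pairs. In either case the interval for each class included the value over all shared peaks, except that of the 9 promoters at replicate 1 summits, whose lower bound was 66.4%. Promoter windows were also richer in G and C, with a median of 63.4% beside 51.5% at distal summits, and the part of base composition in the site counts was not tested.

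More than 1 stretch was present in 4 of the 9 promoter regions and in 1 of the 31 distal ones, the region at -21.6 kb of Etv4, beside 17.3% of all shared promoter peaks and 8.0% of all shared distal ones. The exact interval for 4 of 9, 13.7 to 78.8, included the 17.3%. The symmetric form GCCNNNGGC was found in 8 of the 40 regions, 20% (9.05 to 35.6), beside 19.1% of all shared peaks. It was present in 4 of the 9 promoter regions (13.7 to 78.8) and 4 of the 31 distal ones (3.63 to 29.8), beside 22.9% and 17.8%, and both intervals included those values. The nearest site lay at a median of 15 bp from the summit (0.5 to 46.5), and within 20 bp in 14 of the 24 regions.

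Distal regions with a site were the stronger ones in these windows. Their median enrichment was 8.67 in replicate 1 and 9.69 in replicate 2, and that of regions without a site was 5.41 and 5.60. Of the 10 strongest distal regions 8 held a site, including those of Spred1, Dusp6, Spry2, Spry1 and Dusp5. The exceptions were the region at -89.6 kb of Spry4 and the intronic region of Dusp6. Several of the 8 were at Dusp6 alone. For all distal regions here the share was 48.4%, and for all shared distal peaks of any enrichment it was 54.5%. The share among equally strong distal peaks of the whole list was not computed. With sites taken at replicate 2 summits the medians of the pair means were 7.64 for 19 regions with and 4.97 for 12 without. The ratio of the medians was 1.62 at replicate 1 summits, while over all distal pairs it was 1.09, from medians of 6.92 and 6.38.

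Replicate agreement was then examined. From the side of replicate 1, 40 of 45 peaks of the 10 genes were shared, or 88.9% (75.9 to 96.3), and from the side of replicate 2 it was 40 of 53, or 75.5% (61.7 to 86.2). The values over all peaks were 87.1% and 76.0%, so these genes matched the lists as a whole. All 40 shared regions were mutual best pairs between the lists. Across these pairs, which share 2 libraries and are not independent replicates, Pearson's r of log2 enrichment was 0.857 and Spearman's coefficient was 0.822, beside an r of 0.870 over all 16034 pairs.

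Enrichment in replicate 2 divided by that in replicate 1 had a median of 0.959 (0.675 to 2.01), and 17 of the 40 regions were higher in replicate 2. Over all pairs the median ratio was 1.05 and 57.8% were higher in replicate 2. The enrichments differed by less than 1.5-fold in 37 of the 40 pairs, 92.5% (79.6 to 98.4), beside 88.1% of all pairs. This included all 9 promoter regions and 28 of the 31 distal ones. The exceptions were the regions of Dusp4 at -64.0 kb and 91.1 kb and that of Etv4 at 58.0 kb, with 3.04 and 5.54, and all 3 were higher in replicate 2. Summits of a pair were 18.5 bp apart at the median (0 to 98), with 32 bp in promoters and 16 bp at distal regions, and 24 bp over all pairs. The ratios ran from 0.778 to 1.25 over the 9 promoter regions and from 0.675 to 2.01 over the 31 distal ones, and a range over more regions tends to be wider.

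**Figure D4:**
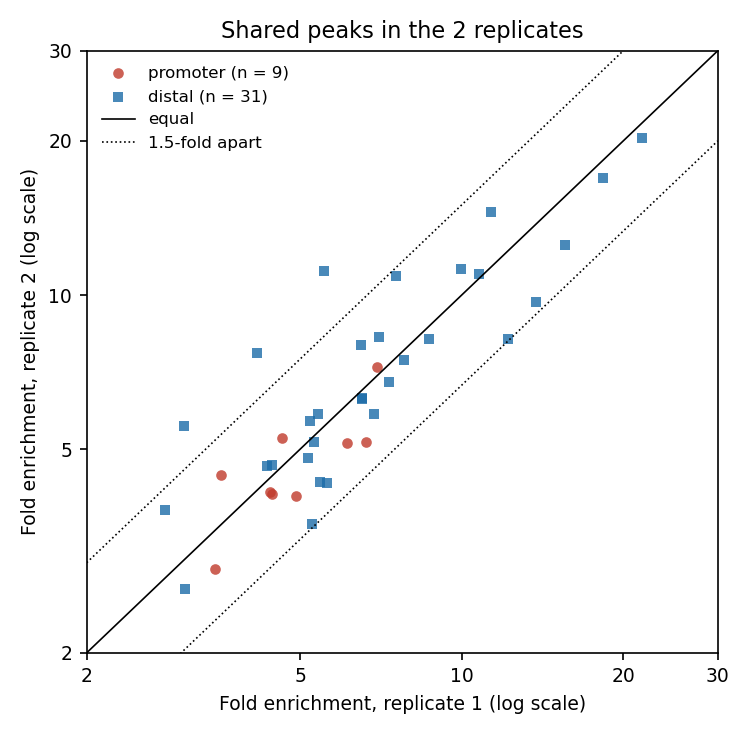
Fold enrichment of the 40 shared regions in replicate 1 (horizontal, log scale) and replicate 2 (vertical, log scale), with promoter regions as circles and distal regions as squares. The solid line marks equal values and the dotted lines a 1.5-fold difference, and the 3 distal regions beyond the upper dotted line, 2 at Dusp4 and 1 at Etv4, are those that differed more than that.

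Regions found in 1 replicate were narrower and weaker at the median than the shared ones. The 5 of replicate 1 had a median enrichment of 3.72 (2.20 to 4.58) and none lay in a promoter of the 10 genes. A Dusp5 and a Dusp6 region among them lay 608 bp and 877 bp from a TSS of the neighbours Smc3 and Poc1b. The 13 of replicate 2 had a median of 4.59 (2.69 to 6.59) and included 1 promoter region of the 10 genes, that of Spred1. A Spred2 region among these lay 465 bp from a TSS of Actr2. The medians of 3.72 and 4.59 were close to the 3.99 and 4.60 of all peaks found in 1 replicate. Their median widths were 254 bp and 245 bp, while the shared regions were 489 bp and 438 bp wide in the respective lists. The median -log10 q, the strength of evidence the peak caller gave a region, was 7.22 and 7.86 for them and 26.8 and 27.9 for the shared ones. The strongest region of replicate 1 only was in an intron of Spred1 at 27.7 kb (chr2:116974886-116975141), with 4.58. The strongest of replicate 2 only was upstream of Etv5 at -16.2 kb (chr16:22455842-22456223), with 6.59. A neighbouring Etv5 region at -21.5 kb had 6.25 and the highest -log10 q of them, 24.5, and neither of these regions held a TFAP2 site. Of the 13 regions in replicate 2 only, 11 had a site, 84.6% (54.6 to 98.1), beside 52.9% of all peaks in replicate 2 only. In replicate 1 only it was 2 of 5, 40% (5.27 to 85.3), beside 44.4%. Sequencing depth could not be read from the lists, and its part in the larger number of peaks in replicate 2 was not tested.

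Sites of other factors at the shared summits were few. AP-1 sites (TGACTCA or TGAGTCA, which are each other's reverse complement), bound by FOS and JUN, were found in 3 of the 40 regions, 7.50%, beside 6.36% of all shared peaks. They lay at Dusp4 (8.01 kb), Etv4 (55.4 kb) and Spred2 (-89.1 kb), all distal. The ETS core CCGGAA, on either strand, was found in 4, 10% (2.79 to 23.7), beside 3.10%. These were the promoter regions of Dusp4 at -1.75 kb and Spry4, and the Etv4 regions at 71.7 kb and 58.0 kb. SOX sites (ACAAAGG or ACAATGG) were found in 1 region, at 25 kb of Dusp6, or 2.50% beside 5.21%. The palindromic E-box CACGTG was found in 0 of 40, which allows a share of up to 8.81% by the exact interval, beside 1.78%. Each of these intervals included the value over all shared peaks, and at 40 regions a difference from it was not detectable.

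The rest of the pathway was read from lists of other genes. Of 25 genes of the cascade itself, from receptors to ERK and its substrate kinases, 9 had a shared promoter peak, 36% (18 to 57.5). Of 21 other feedback and output genes it was 11, or 52.4% (29.8 to 74.3). Both stood above the 17.0% of all protein-coding genes, as did the 10 genes described here. These lists too were made with earlier results known, and they were not tested against each other. A shared peak in the window was present at 24 of the 25 and at all 21, beside 71.7% of all protein-coding genes, so such a peak was common in general.

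The cascade genes with a promoter peak ran from receptor to kinase. Met, the receptor of hepatocyte growth factor, had the highest mean enrichment of these, 20.0 ± 0.310 (SD, n = 2), at -4028 bp. The others among the 10 strongest were the kinase gene Rps6ka3 (6.61 ± 0.642), the genes of the RAS inhibitors Rasa1 (6.29 ± 0.535) and Nf1 (5.20 ± 0.193), and Mapk3, which encodes ERK1 (4.68 ± 0.157). Nf1 encodes neurofibromin, the partner of the SPRED proteins. Among feedback and output genes, the MAP kinase phosphatase gene Dusp1 had 11.8 ± 0.0270, above every promoter region of Dusp4 and Dusp6. Dusp8, a phosphatase gene of the JNK and p38 kinases, had 5.94 ± 0.232. The immediate early and output genes Phlda1, Myc and Egr1 had 7.52 ± 2.35, 5.69 ± 0.524 and 5.21 ± 0.130.

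At the edge of the window, the regions farthest inside lay from 91.1 to 93.6 kb from the gene body, at Dusp6, Spry4 and Spry2, with enrichments from 2.20 to 5.67. Those just outside lay at 104 kb from Spry1, with 8.21 in replicate 1 and 5.92 in replicate 2, and at 105 kb from Etv5, with 6.67 and 7.89.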

How the data were processed

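Per the submitters' processing notes, the mouse data involved BWA, MACS 1.4.2 and build mm9, while their roles and settings are not given in the sources consulted. The lists have summit and q-value columns, which that MACS version does not usually write, so the caller behind the enrichments and q-values is uncertain. The authors deposited separate peak lists for the 2 ChIP replicates, and these lists were used here. For every peak the deposited lists give a fold enrichment (a ratio over background, used here as signal strength). They also give the -log10 q, which the authors' caller computed and which was used as strength of evidence, and a score, which followed the -log10 p in every peak and was not used. The lowest -log10 q was 2.64 in both deposited lists, so weaker regions were not seen. Depth is unknown, and intervals reflect counting error alone. No list of the input was used.

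The 10 genes and all lists were chosen with earlier results of these data known. Genes came from GENCODE mouse version M1 on mm9, and 0 peaks ran past a chromosome end. Peaks that overlapped by at least 1 bp were shared, as in the study's methods, and shared regions have replicate 1 coordinates. A region was paired when its 2 peaks were each other's best overlap. Promoters covered 5 kb before and 1 kb after each TSS annotated for the gene (for any protein-coding gene where all peaks are described). Sites on either strand were sought up to 50 bp from the summit. Intervals are exact Clopper-Pearson 95% intervals. No test between groups was run, since there was 1 ChIP group of 2 replicates. Described in full were promoter regions, the strongest shared distal region of each gene, the strongest region of each replicate alone and the 10 strongest promoter regions of other pathway genes. Sequence windows of 20 bp to each side had been planned and were widened to the searched 50 bp, with at most 30 bases inside a UTR. Spry3 was listed among the other pathway genes but not matched. The alternatives tried are given in the closing section.

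Python 3.11.15 with numpy 2.4.6, pandas 2.3.3, scipy 1.17.1 and matplotlib 3.10.9 was used, and the scripts were tested on simulated data.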

Additional observations from a re-analysis of the deposited data

How the results depend on the processing

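In all, 109 alternative values of 14 results were computed under 14 settings, of which 13 were planned and 1, sites at replicate 2 summits, was chosen after seeing the data. Of these values 92 stayed within a set band around the value reported, which was 1.5 times for counts, the exact interval for percentages and 1 SD for medians and their ratios. A -log10 q of at least 5, a reciprocal overlap of at least 50% and summits within 100 bp each left the same 40 shared regions. Many of the 92 values therefore repeated the reported value and could not have moved. The band for the summit distance also reached down to negative distances, so the count of 92 is not a measure of stability. With the upper 50% of each list by enrichment, 21 and 24 peaks remained in the replicates, 18 were shared, 1 gene had a shared promoter peak (beside 6.40% of all protein-coding genes) and 5.56% of shared regions lay in promoters. The promoter to distal ratio of median enrichment was then 0.768 and rested on 1 promoter region. With windows of 50 kb the counts were 28, 32 and 25 and the ratio was 0.627. With regions nearest to the gene's own TSS only, the ratio was 0.621. The longer consensus GCCNNNGGC was present in 20% of all shared regions, 44.4% of promoter and 12.9% of distal ones. Leaving out 1 replicate and using all peaks of the other, the ratio ranged from 0.745 (without replicate 1) to 0.831 (without replicate 2), and the share of distal regions with a site from 47.2% (without replicate 2) to 67.4% (without replicate 1). The ratio was below 1 in 10 of 10 alternatives, which are not independent of each other. The q, reciprocal overlap and summit settings kept the same regions and so repeated the reported ratio of 0.701. The other settings reused many of the same peaks. The cause of these shifts was not tested. With 2 replicates and 9 promoter regions, differences between classes are known only roughly, and an unknown depth limits what weak peaks show.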
